A study of Drosophila melanogaster with 2 samples.

Results

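The regions described here are CBP peaks of early Drosophila melanogaster embryos that lay in groups of 3 or more along the genome. Peaks on the main chromosome arms (2L, 2R, 3L, 3R, 4 and X) were ordered along each arm, and neighbours with a gap of 5 kb or less were joined. Every peak in a group of 3 or more was kept. This gave 213 peaks in 61 clusters, out of 1326 peaks on the main arms and 1347 in the whole list. Positions chose the members, so the number and spacing of clustered peaks describe the list and were not tested.

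The study comprised 1 chromatin immunoprecipitation sequencing (ChIP-seq) sample, precipitated with the antibody labelled rbCBP, and 1 chromatin input sample, for which no peak list was analysed here. Both came from whole embryos collected 0 to 4 h after egg laying, untreated and crosslinked with formaldehyde. The labels name iso1 flies (y; bw cn sp) or transgenic flies as possible parents without saying which were used, and whole embryos of this age mix many cell types. There is a single ChIP sample, so replicate error cannot be given, and without counts in the list the depth of sequencing is not known.

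CBP (CREB-binding protein) is encoded in flies by nejire. It is a co-activator that does not read DNA sequence itself but is brought to enhancers and promoters by sequence-specific transcription factors, where it acetylates histones, among them histone H3 at lysine 27. Patterning genes of the early fly embryo are known for having several separate enhancers, each driving part of the gene's pattern, spread over the DNA around the gene. The collection window takes in the first nuclear divisions, the onset of zygotic transcription and gastrulation.

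Each peak carries the authors' MACS score, whose scale the file does not state, and the lowest listed score was 50.02. The score is used here only to describe and rank peaks within this list. Positions are on build BDGP5, counted from 1 and including the last base. The annotation given is of Release 6, another build, so clusters are named by position, no gene is assigned to them, and no sequence of them is shown.

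The 61 clusters differed widely in length. Their span, from the first start to the last end, ran from 2083 to 16314 bp with a median of 6499 bp (95% interval 5642 to 7671). Peaks filled between 20.7% and 91.1% of the span, with a median of 39.1%. Outside a cluster, where the joining rule leaves no peak within 5 kb, the nearest other peak lay at a median distance of 24158 bp (18188 to 32503), and at 249312 bp at the farthest. For 17 clusters there was no other peak within 50 kb, and 3 clusters had at least 5 others within that distance. Clusters of 3 peaks numbered 43 and held 129 of the 213 members, while 18 clusters held 4 or more.

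The richest cluster, with 7 peaks, lay on 3L from 14955802 to 14971249. Along it the scores were 63.94, 120.87, 156.59, 109.26, 186.32, 58.02 and 69.15. Widths in the same order were 451, 968, 921, 1163, 1879, 349 and 884 bp. The 4 neighbouring peaks from the second to the fifth all scored above 100, the first and the last 2 all scored below 70, and the highest peak was also the widest. It was the only cluster among the 61 with 4 peaks scoring 100 or more. Its gaps were 1317, 2226, 430, 1725, 2268 and 867 bp, so no gap came near the 5 kb limit.

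Both clusters of 6 peaks lay on 3R and differed in how their scores were arranged. The one from 668572 to 678918 had scores of 54.19, 56.57, 56.83, 193.5, 60.31 and 76.39. A single peak of 1356 bp, from 674412 to 675767, stood out there, and the other 5 all scored under 80. The cluster from 15164680 to 15176662 had scores of 132.75, 111.39, 64.8, 74.97, 67.83 and 174.57, high at both ends and lower between. Its peaks were narrow, 425 to 707 bp, and its last peak, which had the highest score, was set off from the others by a gap of 4575 bp. A further peak lay 6286 bp before its first, outside the joining distance of 5 kb.

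Of the 5 clusters with 5 peaks, the one with the highest score lay on 3R from 2579427 to 2589348. Its scores were 111.48, 57.19, 175.32, 128.03 and 71.96. A gap of 4913 bp, the longest inside any cluster, separated its first 2 peaks from the other 3. At a slightly shorter joining distance it would have been a pair and a cluster of 3. On 2R, the cluster from 5860951 to 5876984 had scores of 110.23, 68.65, 76.27, 82.56 and 67.65. Its peaks were broad, with widths of 1047, 1567, 837, 2016 and 648 bp, and covered 6115 bp in all. Only the 7-peak cluster on 3L and a cluster of 4 on 2R described below covered more. No peak of this 2R cluster scored under 60.

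The other 3 clusters of 5 had maxima of 92.91 to 111.23. On 2L from 155443 to 167136 the scores were 51.03, 99.4, 103.34, 90.97 and 61.71, with the 3 inner peaks above both outer ones. The second on 2L, from 18141482 to 18152893, had scores of 52.7, 50.5, 67.34, 92.91 and 50.85. Here 3 of 5 peaks sat next to the lower limit of the list. On X from 18191102 to 18204011 the scores were 56.21, 63.01, 111.23, 53.76 and 60.49, so the middle peak alone passed 100. Over the 8 clusters with 5 or more peaks, the highest score belonged to an inner peak in 6, and the lowest to an inner peak in 5. Of their 44 peaks, all but the first and last of each cluster are inner, so most positions were inner for any rank.

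**Figure D1:**
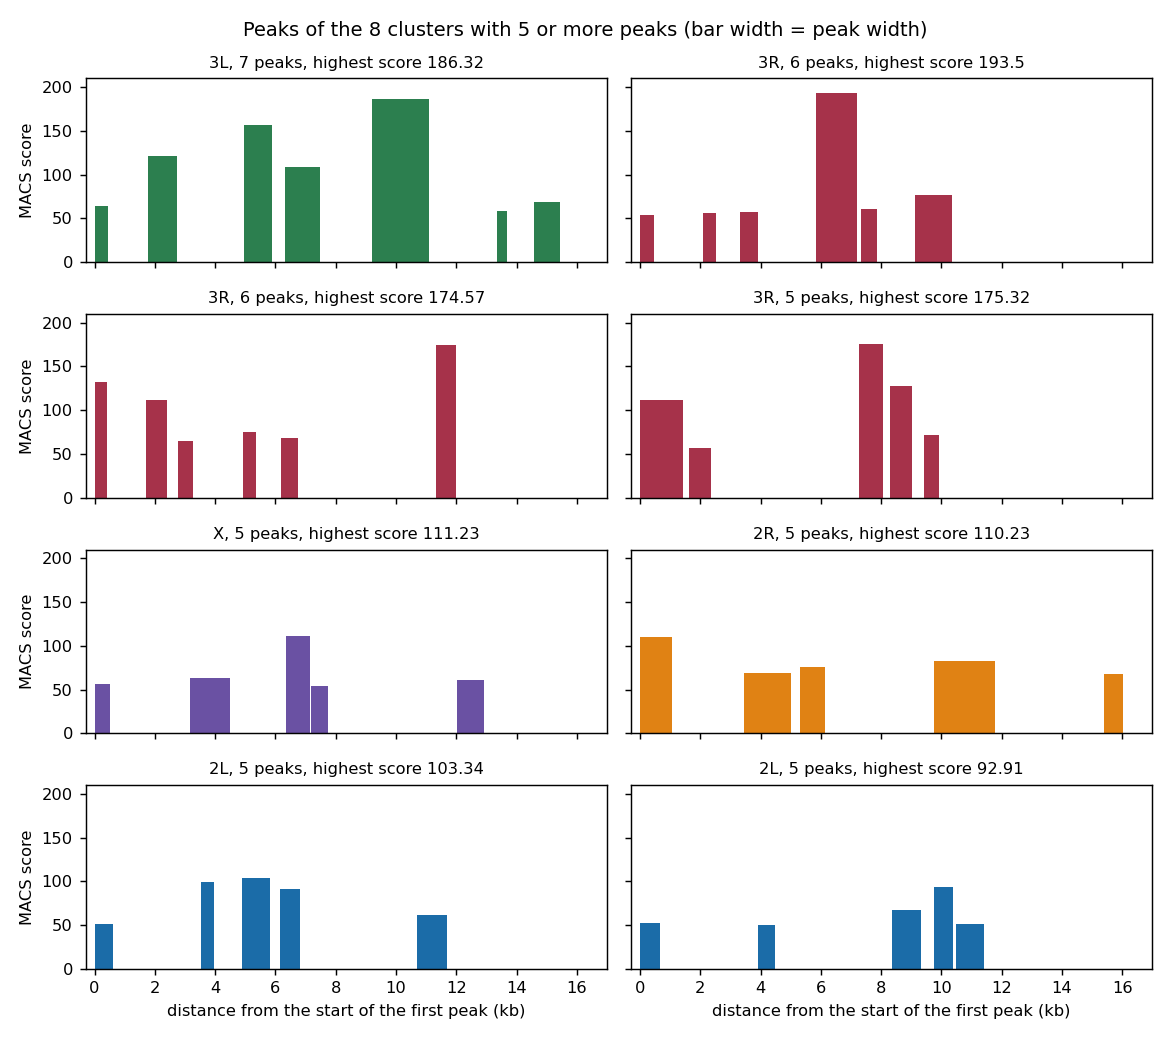
Each panel is 1 of the 8 clusters with 5 or more peaks, ordered by number of peaks and then by highest score. The horizontal axis is distance in kb from the start of the first peak, each bar is 1 peak with its true width, and its height is the MACS score. The 7-peak cluster on 3L has 4 neighbouring peaks above 100, while the first cluster of 6 on 3R has 1 high peak of 193.5 among 5 low ones.

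The 10 clusters of 4 peaks included the longest span of all. It lay on 2R from 9442477 to 9458790 and had scores of 158.01, 67.13, 103.01 and 330.16, with widths of 1367, 1441, 1771 and 1807 bp. The highest peak stood at its end, beyond a gap of 4676 bp. A shorter cluster on 2R, from 18573384 to 18578852, had scores of 51.52, 262.69, 251.25 and 254.53. Its last 3 peaks, of 1234, 925 and 848 bp, lay within gaps of 68 and 135 bp of each other and had nearly equal scores. The third on 2R, from 15159080 to 15163350, was the shortest of the 10 at 4271 bp, and its scores of 79.79, 53.02, 105.18 and 138.4 were set apart by gaps of 76, 40 and 1670 bp.

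On 3L, the cluster from 19549332 to 19556026 had scores of 152.06, 97.37, 89.63 and 180.41, and the one from 10845353 to 10854185 had 63.1, 100.87, 151.97 and 121.52. Neither had a peak below 60. On 2L, the cluster from 13224957 to 13235148 opened with a peak of 218.57 and went on with 53.99, 69.1 and 56.16. The scores of the other 2L cluster, from 4363471 to 4372202, were 92.71, 56.08, 73.16 and 59.05. These 2L clusters thus had their highest peak first and no gap of 500 bp or less. The 3 clusters of 4 on 3R ran from 2817372 to 2827180 (scores 57.68 to 117.67), from 2949246 to 2956916 (50.85 to 79.12) and from 17464070 to 17470438 (53.12 to 166.57). The X carried no cluster of 4.

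The 5 clusters of 3 with the highest peaks differed in how even their scores were, with highest-to-lowest ratios of 2.23 to 7.36. On 3L from 6177625 to 6186484, a peak of 384.34, the highest of all 213 members, had neighbours of 52.24 and 57.74. Its ratio of 7.36 was the largest of the 61 clusters. On 3R from 2684548 to 2694356 the scores were 153.77, 345.18 and 61.38, with gaps of 4107 and 3232 bp. The X cluster from 9578021 to 9581121 had scores of 361.32, 116.83 and 104.07, a ratio of 3.47, and was the only cluster of the 61 in which every peak reached 100. Its gaps were 53 and 335 bp, and 87.5% of its 3101 bp were covered by peaks. On 3L, the cluster from 743960 to 754196 had scores of 234.8, 156.59 and 62.24, and the one from 20393982 to 20399189 had 199.72, 203.3 and 91.07.

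The shortest and the longest clusters of 3 differed 4.91-fold in span. The shortest lay on 2L from 9448081 to 9450163 (2083 bp, scores 79.25, 92.54 and 128.79), followed by the 2229 bp on 3L from 19036542 to 19038770 and by the 2703 bp that a 3R cluster spans from 16116528 to 16119230. Peaks covered 80.3%, 91.1% and 80.6% of them, so each is close to 1 continuous region with narrow breaks. The longest was the 3L cluster from 743960, with 10237 bp. It was followed by the 3R cluster from 2684548 (9809 bp) and the X cluster from 4573143 to 4582413 (9271 bp), of which peaks covered 22.3%, 25.2% and 20.7%. The most even scores were those on 2R from 4119619 to 4125642 (82.79, 88.87 and 92.39), on 3L from 14142813 to 14147265 (62.45, 53.14 and 57.68) and on 3R from 5700183 to 5706154 (63.29, 59.46 and 70.87).

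Scores within a cluster were spread widely. The highest score of a cluster had a median of 135.31 (111.59 to 159.14), and the lowest a median of 58.41 (56.91 to 62.91). The lowest score of a pair had nearly the same median, 58.415 (55.88 to 61.34), and the highest of a pair a median of 89.575 (83.08 to 105.42). Where a group holds more peaks, its highest score tends to be larger and its lowest smaller, so these medians are not compared at equal group size. In clusters, the ratio of the highest to the lowest was 2.03 at the median, and it exceeded 2 in 33 clusters and 3 in 16. In 46 clusters at least 1 peak reached 100, in 20 at least 2 did and in 7 at least 3, whereas 15 clusters had none. Of the 213 members 34.7% reached 100, against 20.9% of all arm peaks. A group of 3 or more peaks will often hold such a peak at the share of all arm peaks alone. A peak under 60 was present in 32 clusters, and no cluster consisted only of such peaks. Of the 213 members 22.1% scored under 60, against 33.3% of all arm peaks. Peaks of 1 cluster were hardly more alike in score than peaks of different clusters. The share of the variance of log2 score that lay between clusters was 0.0513 (intraclass correlation over 213 peaks in 61 clusters), and that of log2 width was 0.137.

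**Figure D2:**
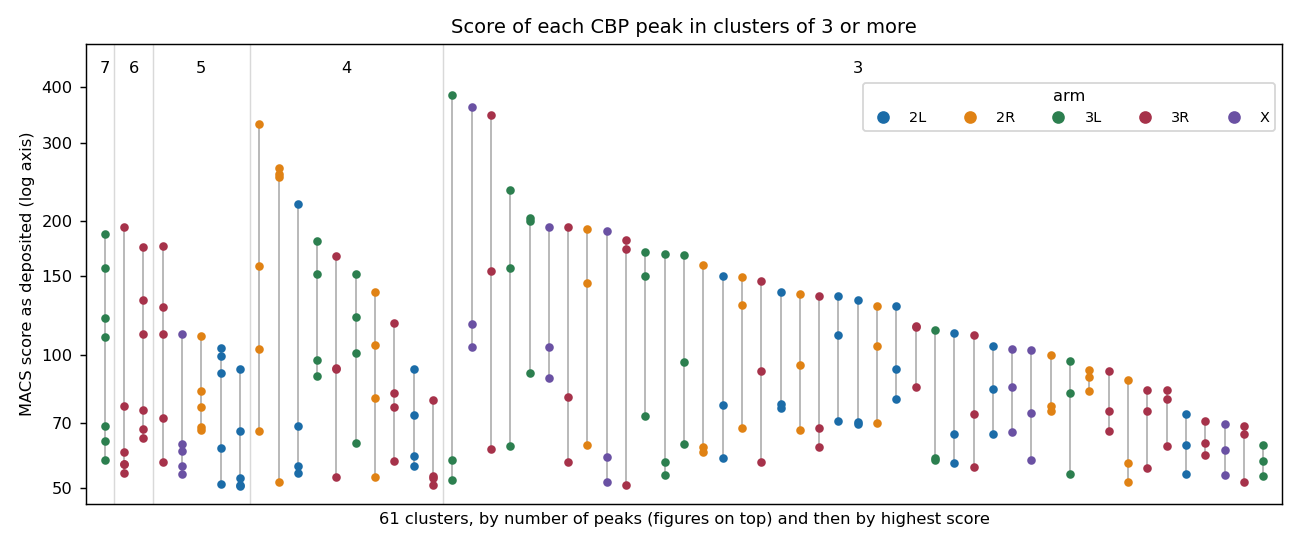
Each column is 1 of the 61 clusters, grouped by number of peaks (7, 6, 5, 4 and 3, marked on top) and ordered by highest score. Points are the MACS scores of single peaks on a log axis, coloured by arm and joined by a line from the lowest to the highest. The low end lies below 60 in 32 columns, while the high ends range from 62.45 to 384.34.

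The strongest peak could stand anywhere along a cluster. Among the 43 clusters of 3, it was the first peak in 17, the middle one in 14 and the last in 12, in the direction of rising coordinates. The lowest peak was first in 13, in the middle in 11 and last in 19. Over all clusters, the 91 inner peaks had a median score of 83.68 (74.5 to 97.37) and the 122 outer peaks 75.975 (69.72 to 84.67), with overlapping intervals. Median widths were 737 bp (650 to 806) for inner and 702 bp (672 to 807) for outer peaks. The highest-scoring peak was also the widest in 30 of the 61 clusters (49.2%). In groups this small some would coincide even if width and score were unrelated, and that number was not computed. Across the 213 members, width and score had a Spearman's rho of 0.490, beside 0.472 over 280 peaks in pairs and 0.467 over 833 single peaks.

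Peaks in clusters had a higher median score and a higher median width than single peaks of the same list. The median score was 79.25 (73.33 to 88.87) for the 213 members, 69.595 (65.69 to 74.22) for the 280 peaks in neighbouring pairs and 65.98 (64.73 to 67.7) for the 833 single peaks. The interval of the members overlaps that of the pairs and lies above that of the single peaks. A score of 100 was reached by 34.7% of members (74 peaks), 24.6% of peaks in pairs (69) and 16.1% of single peaks (134). Scores under 60 made up 22.1%, 34.3% and 35.9% of these classes in the same order. Of the 15 highest peaks on the arms, 4 lay in clusters of 3 or more, 4 in pairs and 7 alone, so the very top of the list was not confined to clusters. Of all arm peaks, these classes in the same order held 16.1%, 21.1% and 62.8%. The highest score on the arms, 546.27, belonged to a pair. These values come from the list that chose the members, their intervals treat peaks as independent, and no test was made.

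Members made up 16.1% of the arm peaks (exact binomial 95% interval 14.1 to 18.2) and 18.9% of the covered sequence, with 173059 bp. The median width was 719 bp (681 to 772) in clusters of 3 or more, 648.5 bp (621 to 679) in pairs and 582 bp (556 to 605) among single peaks. Widths above 1000 bp were found in 21.6%, 13.2% and 11.4% of these classes in the same order. Part of the difference goes with score. Among peaks with scores from 50 to 60, median widths were 579 bp (521 to 651, 47 peaks) in clusters, 516 bp (471 to 556, 96 peaks) in pairs and 478 bp (457 to 507, 299 peaks) among single peaks. Among peaks scoring 120 or more, they were 877 bp (807 to 1099, 51 peaks), 871.5 bp (745 to 970, 50 peaks) and 950 bp (853 to 1037, 81 peaks). The medians in the same order were 672, 647 and 552 bp for scores from 60 to 80, and 787, 715 and 710 bp for scores from 80 to 120. Clusters thus had the widest median in the 3 lower score ranges, with intervals that overlap those of pairs in each, and not in the highest one.

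**Figure D3:**
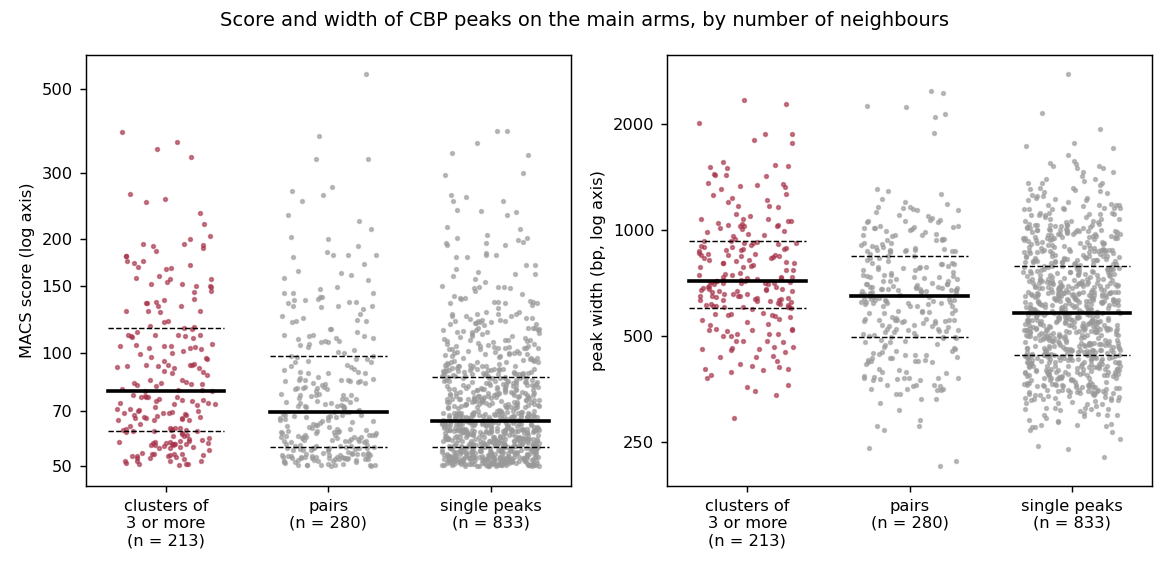
MACS score (left) and peak width in bp (right), both on log axes, of each peak on the main arms in clusters of 3 or more, in pairs and alone. Solid lines are medians and dashed lines quartiles. Median scores are 79.25, 69.595 and 65.98 and median widths 719, 648.5 and 582 bp from left to right, while the point clouds overlap broadly.

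How far the peaks of a cluster are separate regions depends on the gaps between them. The 152 gaps inside clusters ran from 2 to 4913 bp with a median of 1341.5 bp (915 to 1692). The 140 gaps inside pairs had a median of 953.5 bp (594 to 1509), and the intervals overlap. Gaps of 500 bp or less made up 47 of 152 in clusters (30.9%, 23.7 to 38.9) and 53 of 140 in pairs (37.9%, 29.8 to 46.4). At least 1 such gap was present in 36 clusters, and in 6 clusters no gap was wider. The narrowest, 2 bp, lay in the cluster on 3R from 20993452 to 20999950. The width of a gap was only weakly related to the scores on its sides. Spearman's rho of the gap with the lower of the 2 flanking scores was -0.205, and with the higher one -0.129, over 152 gaps that share peaks and clusters.

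When peaks across gaps of 500 bp or less were merged into 1, 36 of the 61 clusters still held 3 or more regions, 19 held 2 and 6 became 1 region. The merged list of 1226 arm regions had 122 in clusters of 3 or more. Their median score, 73.43 (67.65 to 84.67, the highest peak standing for a merged region), was then below that of regions in pairs, 75.67 (68.18 to 83.12), with overlapping intervals. It was 67.1 (65.31 to 68.44) for single regions. The order of clusters and pairs in median score was thus reversed by this step. Single regions stayed lowest, but their interval then overlapped that of the clusters, so the separation seen before merging was not kept. The order of median widths was kept, at 732.5 bp (681 to 831), 684.5 bp (650 to 725) and 605.5 bp (582 to 632) for clusters, pairs and single regions.

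**Figure D4:**
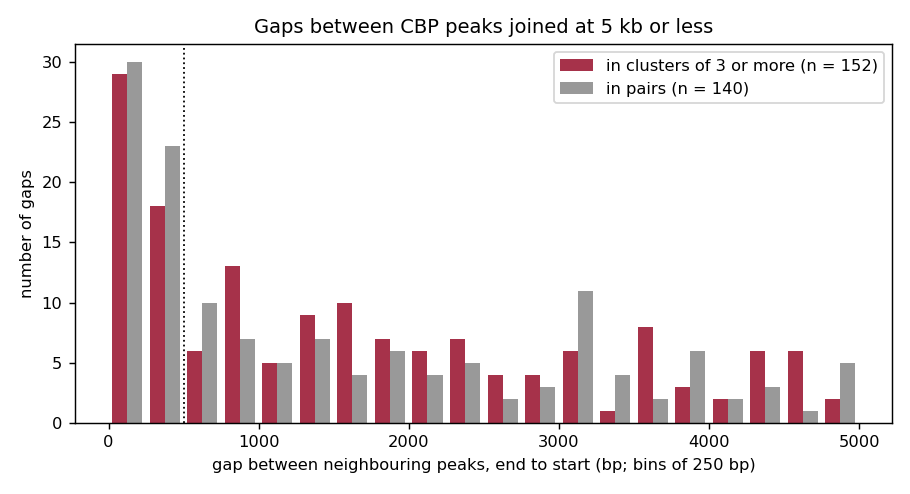
Number of gaps between neighbouring peaks in bins of 250 bp, for clusters of 3 or more (152 gaps) and for pairs (140 gaps). The dotted line marks 500 bp. Both distributions are highest below that line, with 47 and 53 gaps, and continue up to the joining limit of 5000 bp.

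For some clusters, membership rested on small differences at the joining limit. The longest gaps kept inside clusters were 4913, 4880 and 4715 bp, and 8 clusters held a gap over 4500 bp. The shortest gaps left outside that would have made or enlarged a cluster were 5140 bp on 2L, between a peak ending at 18875802 and a pair starting at 18880943, and 5166 bp on both 2L and 3R. A gap of 5350 bp kept a peak of 67.1 out of the 3R cluster that starts at 2636268. In all, 8 such gaps lay between 5000 and 6000 bp. The lower limit of the score also set how many clusters there were. With peaks under 60 left out and clusters rebuilt, 37 clusters with 123 peaks were found, and with peaks under 100 left out 4 clusters with 13 peaks.

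Clusters occurred on each of the 5 large arms, with 18 on 3R, 12 each on 2L, 2R and 3L and 7 on X, and none among the 3 peaks of chromosome 4. Members were 18.0% of the peaks of 3R (14.2 to 22.4), 17.1% of those of 2L (12.6 to 22.4), 16.5% of those of 3L (12.1 to 21.6), 15.0% of those of 2R (11.0 to 19.7) and 12.3% of those of X (7.96 to 17.9). All these intervals overlap. The median member score was 96.56 on 3L (63.94 to 121.52), 88.87 on 2R (74.5 to 110.23) and 74.97 on 3R (67.83 to 83.17). It was 73.77 on X (60.49 to 104.07) and 73.345 on 2L (66.37 to 90.97), and these intervals overlap as well. Median member widths were 837 bp on 2R (689 to 1170), 809.5 bp on 3L (706 to 921), 703 bp on 3R (627 to 729), 678 bp on X (579 to 863) and 671.5 bp on 2L (616 to 895).

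Most clusters were far from the next. Over the 56 distances between neighbouring clusters of the same arm, the median was 1388.6 kb, and 5 were under 150 kb. Of these 5, 4 lay in a row on 3R and joined 5 clusters over 377 kb, from 2579427 to 2956916. The fifth separated the 2R clusters that start at 10195546 and 10316467, by 115896 bp with no peak between them. The 3R stretch held 35 peaks, of which 19 were members, 8 were in 4 pairs and 8 were alone. It thus contained 29.2% of the 65 members on 3R, beside 35 of all 361 peaks on that arm. The stretch was picked for its run of clusters, so a high share of members follows from that choice.

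The highest score of a cluster differed along this stretch. Its first 3 clusters each held a peak above 170: 175.32 in the cluster from 2579427, 180.86 and 173.15 in that from 2636268, and 345.18 in that from 2684548. The fourth cluster, from 2817372, reached 117.67, and the last, from 2949246, 79.12. Between the third and the fourth, 7 peaks were listed, all below 80. Between the fourth and the last, 6 were listed, of which 3 scored above 130 without being part of a cluster of 3. Over the whole stretch the median score was 79.12 for the 19 members (range 50.75 to 345.18) and 63.415 for the 16 other peaks (51.85 to 139.68). The 46 members elsewhere on 3R had a median of 74.73.

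**Figure D5:**
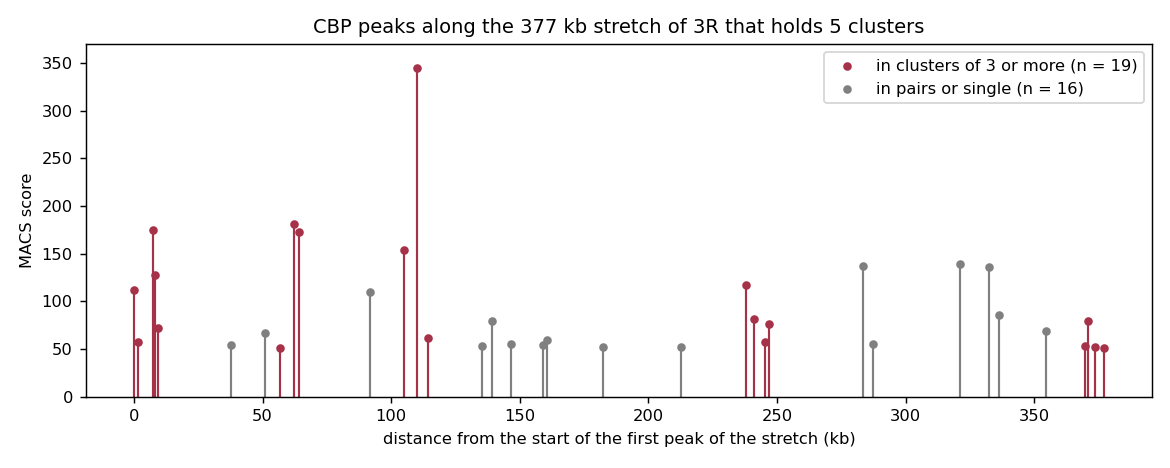
MACS score of the 35 peaks along the 377 kb of 3R that hold 5 clusters, against distance in kb from the start of the first peak. Members of clusters of 3 or more (19) and peaks in pairs or alone (16) have different colours. The highest peak, 345.18, stands in the third cluster, and the last cluster stays below 80.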

How the data were processed

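Per the labels' protocols, embryos were crosslinked with 1.8% formaldehyde for 15 minutes and the chromatin was sonicated before precipitation. Per the submitters' processing notes, Bowtie and build BDGP5 were used. MACS made the peak calls, per the file header. Neither tool's version is stated, nor are the thresholds, the treatment of duplicate reads, the use of the input or any pooling of replicates (all not given in the sources used here). The deposited score of each peak is the authors' own value.

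Peak starts were changed to count from 1. Peaks were joined where the next start minus the highest end so far was 5000 bp or less. The intervals of medians are 95% binomial order-statistic intervals, and those of shares are exact Clopper-Pearson intervals. Both cover the counting of peaks in 1 list only and say nothing of other embryo collections. Joining was tested on simulated peaks, and the intervals of medians on simulated independent values. The intervals of shares were not tested in this way. Clusters with 5 or more peaks were described peak by peak and those with 4 by position and scores. Of those with 3, the named ones had the 5 highest scores, the 3 shortest spans, the 3 longest spans or the 3 smallest ratios of scores. Clusters named for 1 gap at the joining limit, or for their place beside another cluster, were chosen after their values were seen. The members and the lists were chosen with earlier results of these data known. Python 3.11.15, numpy 2.4.6, scipy 1.17.1, pandas 2.3.3 and matplotlib 3.10.9 were used.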

Additional observations from a re-analysis of the deposited data

Results flagged for a closer look

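Outside the main arms, 6 peaks formed a cluster on the unplaced sequence U, from 5288388 to 5301961, which stood out because the comparisons of arms do not use that sequence. Their scores ran from 78.72 to 348.92 with a median of 160.455, and their widths from 281 to 499 bp with a median of 400 bp. The 213 members on the arms had a median score of 79.25 and a median width of 719 bp. U is made of unplaced pieces, so these 6 peaks may be farther apart in the genome than the list shows, which was not tested.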

How the results depend on the processing

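No paired analysis was possible because there is 1 sample per group, and for the same reason no replicate could be left out. Of 48 alternative values, 22 stayed within 1.5 times the count or within the 95% interval given with the value, and 26 did not. At a joining distance of 2 kb there were 29 clusters with 96 peaks (7.24% of arm peaks, 80566 bp). They had a median score of 92.71, width of 790 bp and span of 4271 bp. The highest peak was inside in 11 of these 29, against 24 of the 61 clusters at 5 kb. At 10 kb there were 88 clusters, 24.1% of arm peaks were members and the median span was 9809 bp. The highest peak was inside in 42 of these 88. This count rises with the number of clusters and with the number of inner positions in them. With only peaks at or above the median score of the list, there were 23 clusters with 73 peaks (11.1%, 69106 bp), with a median score of 104.64, width of 863 bp and span of 4677 bp, and 7 had the highest peak inside. With peaks within 500 bp merged, there were 36 clusters with 122 regions (9.95%, 111924 bp), a median span of 8559.5 bp and 13 with the highest region inside. With distances from centre to centre, members were 13.3% of arm peaks. Smaller counts under a shorter distance, a higher score or merging follow from the rule itself. Read depth is unknown, and binding weaker than the lowest listed score of 50.02 cannot be described.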
